A study of Mus musculus with 35 samples.

Results

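Ionotropic glutamate receptors of the NMDA type were examined through the transcripts of 6 subunit genes, Grin1, Grin2a, Grin2b, Grin2c, Grin2d and Grin3a, which were taken by gene symbol from the 32544 genes of the count tables. The hippocampi came from adult male C57BL/6JOlaHsd mice with no transgene, 24 hours or 2 weeks after an injection into the amygdala. KA mice received kainic acid, an agonist of other glutamate receptors that triggers status epilepticus and later spontaneous seizures, followed by lorazepam to limit the seizures. PBS mice received the vehicle. Input libraries held total RNA, and m6A libraries held RNA that an antibody against N6-methyladenosine (m6A), the commonest internal modification of mRNA, had pulled down. There were 5 KA and 3 PBS mice with m6A libraries at 24 hours, and 6 KA and 5 PBS mice at 2 weeks. Input libraries of at least 100000 counts came from 3 KA mice and 1 PBS mouse at 24 hours and from 6 KA and 3 PBS mice at 2 weeks. Each library was from 1 mouse, and 13 mice had both kinds.

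NMDA receptors are cation channels. Those made of GluN1 and GluN2 subunits open only when glutamate and a co-agonist, glycine or D-serine, are bound while the membrane is depolarised. Each receptor is a tetramer that must contain GluN1, the glycine-binding subunit, joined by GluN2 or GluN3 subunits. The GluN2 subunit sets how long the channel stays open and how strongly magnesium blocks it, and in the forebrain GluN2A increases over GluN2B as synapses mature. In the hippocampus GluN2A and GluN2B are carried mainly by principal neurons, GluN2D by interneurons, and GluN3A lowers calcium entry and is most abundant early in life. These receptors carry much of the calcium that enters neurons during prolonged seizures.

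On the GRCm38.p6 assembly, which is the build of the counts (mm10), Grin1 lies at chr2:25291177-25319187, Grin2a at chr16:9567901-9996083 and Grin2b at chr6:135713221-136173615. Grin2c lies at chr11:115249169-115267297, Grin2d at chr7:45831883-45871194 and Grin3a at chr4:49661611-49846023. Protein-coding genes within these spans that were also counted are Lrrc26, which overlaps Grin1, and Ppp3r2, which overlaps Grin3a. They held 664 and 348 counts over all libraries against 86036 for Grin1 and 18806 for Grin3a. Antisense or noncoding genes overlap Grin1 and Grin2b and a pseudogene overlaps Grin2a, and these were not in the tables, so how their reads were assigned is unknown.

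The methyltransferase that writes m6A prefers the sequence GGACT and close variants of it. Each canonical transcript (GENCODE vM39, GRCm39 annotation) was searched for GGACT on the sense strand, and the copy nearest the stop codon within the coding sequence is shown because m6A is known to gather around stop codons. The lines give 25 bases each, with GGACT in capitals:
Grin1: ccttcatctgGGACTcagctgtgct
Grin2a: cctaccagcaGGACTggtcacagaa
Grin2b: aaacaaggccGGACTtccgggccct
Grin2c: ttctgctgggGGACTgtctgccgtc
Grin2d: ctggtagctgGGACTacctgccccc
Grin3a: aggacgaaccGGACTtgtgaatcct
These copies ended 569, 584, 194, 213, 503 and 12 bases before the end of the coding sequence, in the order listed. A match is a description of the letters only, and the count tables give no positions within a gene. All 6 transcripts held the motif, as did 88.9% of 21593 canonical protein-coding transcripts. Grin2a had 22 copies in 14866 bases, a density of 1.48 per kb that exceeded 74.9% of transcripts, and Grin3a had 10 in 7701 bases (1.299 per kb, above 67.0%). Grin2b had 16 copies in 24238 bases (0.660 per kb, above 29.1%) and Grin1 had 3 in 4318 bases (0.695 per kb, above 31.0%). Grin2c and Grin2d lay between them, with 6 and 5 copies.

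Total counts ran from 1652933 to 34564536 in the 19 m6A libraries and from 3057578 to 12694434 in the 13 input libraries used. The 3 other input libraries, all at 24 hours, held 3171 to 34486 counts, and the deepest of these gave 84 counts over the 6 subunits. KA mouse 8 at 24 hours stood apart in both of its libraries. Its median Spearman correlation with the other libraries was 0.816 in m6A and 0.856 in input, where the rest had 0.889 to 0.952 and 0.953 to 0.974, and it had counts for 28496 and 28574 genes. Fold changes of KA over PBS and m6A over input ratios at 24 hours are therefore also given without it. The genes of the excitatory neuron list (8 of 8) had counts in every library used. Their summed level ran from 1858 to 4542 CPM. The highest of them, Snap25 and Syt1, are expressed by neurons in general, so this sum is not specific to excitatory neurons. Column prefixes divide the m6A libraries into sets 3, 4 and 5, and sets and groups were only in part crossed.

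All 6 subunit transcripts had counts in every library used. Levels are TMM-scaled CPM, counts scaled to a common library total, which in m6A libraries combine the amount of a transcript with the share of it that was pulled down. Median CPM over the 13 input libraries was 175 for Grin1, 512 for Grin2a, 961 for Grin2b, 11.7 for Grin2c, 6.31 for Grin2d and 37.6 for Grin3a, which are not scaled for transcript length and are not compared with each other. The lowest count behind any of these values was 10, for Grin2d in 1 PBS input library, and counting error is then large.

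Because the transcripts differ in length, levels between subunits were compared only per kb of canonical transcript. No source used here names the annotation behind the counts, which makes these lengths approximate. The exons of all Grin1 transcripts together hold 11089 bases, against 4318 in the canonical one. For Grin2a these lengths are 17933 and 14866 bases, and for Grin2b 25460 and 24238. In input libraries median CPM per kb was 40.5 for Grin1, 39.7 for Grin2b and 34.5 for Grin2a, followed by 4.88 for Grin3a, 2.19 for Grin2c and 1.16 for Grin2d. In m6A libraries it was 50.7, 48.3 and 36.1 for Grin1, Grin2b and Grin2a, 6.33 for Grin3a, 1.43 for Grin2c and 2.05 for Grin2d. On the canonical lengths Grin1 and Grin2b were not separated: Grin1 was higher per kb in 9 of 13 input and 13 of 19 m6A libraries. On the length of all exons Grin1 would lie lower relative to Grin2a and Grin2b, so its place beside them rests on the length used. Grin2b was above Grin2a per kb in 12 of 13 input and 18 of 19 m6A libraries. Grin2a was above Grin3a in all libraries of both kinds, by 2.99-fold at the least. The lowest pair changed places between the kinds of library, since Grin2d was above Grin2c per kb in 2 of 13 input but in 17 of 19 m6A libraries.

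**Figure D1:**
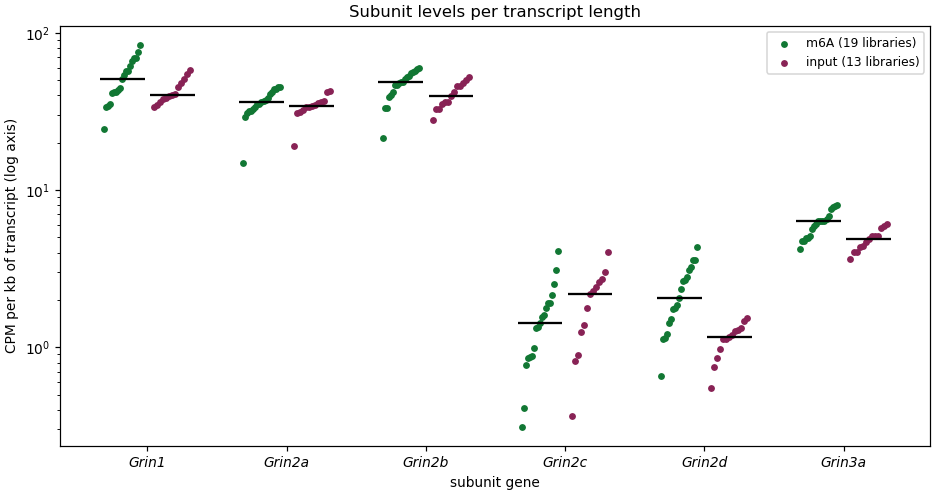
Level of each subunit transcript in CPM per kb of canonical transcript (log axis) in 19 m6A and 13 input libraries, 1 point per library, with medians as bars. Grin1, Grin2a and Grin2b lie between 14.8 and 83.8 CPM per kb, and Grin2c and Grin2d reach at most 4.36 CPM per kb.

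None of the 6 subunits passed an adjusted p of 0.05 between KA and PBS mice in edgeR's quasi-likelihood test, in either kind of library or at either time. Of the genes tested, 0.00607% were called in m6A libraries at 24 hours and 0% in m6A libraries at 2 weeks and in input libraries at both times. The share depended on the tool. An unadjusted p under 0.05 was given by edgeR to 875 and 809 genes in m6A libraries at 24 hours and 2 weeks and to 432 and 1938 genes in input libraries at 24 hours and 2 weeks. After adjustment DESeq2 called 132, 18, 7 and 113 genes in these comparisons, in that order, and voom with sample quality weights called 1120, 2, 595 and 342. In m6A libraries at 24 hours all 6 fold changes were below 0, with a median of -0.30 on the log2 scale against 0.08 over all genes tested. Without mouse 8 they ran from -0.29 for Grin2d to -0.05 for Grin2b, and the median of all genes was -0.01. With all mice that median was 0.46 in the DESeq2 fit, which differs in scaling, model and genes tested at once. In the 24-hour input libraries scaling by library size moved the median of all genes from 0.30 to 0.02. Leaving out mouse 8 moved it to 0.01. Fold changes at 24 hours are therefore to be read against these medians, which most paragraphs below do not repeat. In m6A libraries at 2 weeks no subunit had KA and PBS values that did not overlap (0.446% of all genes had all KA values higher and 0.149% all lower). At 2 weeks 5 of 6 were below 0 in m6A libraries (median -0.17, all genes -0.0013), and 4 of 6 were above 0 in input libraries (median 0.13, all genes 0.02). At 24 hours 2 of 6 were above 0 in input libraries (median -0.15, all genes 0.30), a comparison that has a single PBS library.

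**Figure D2:**
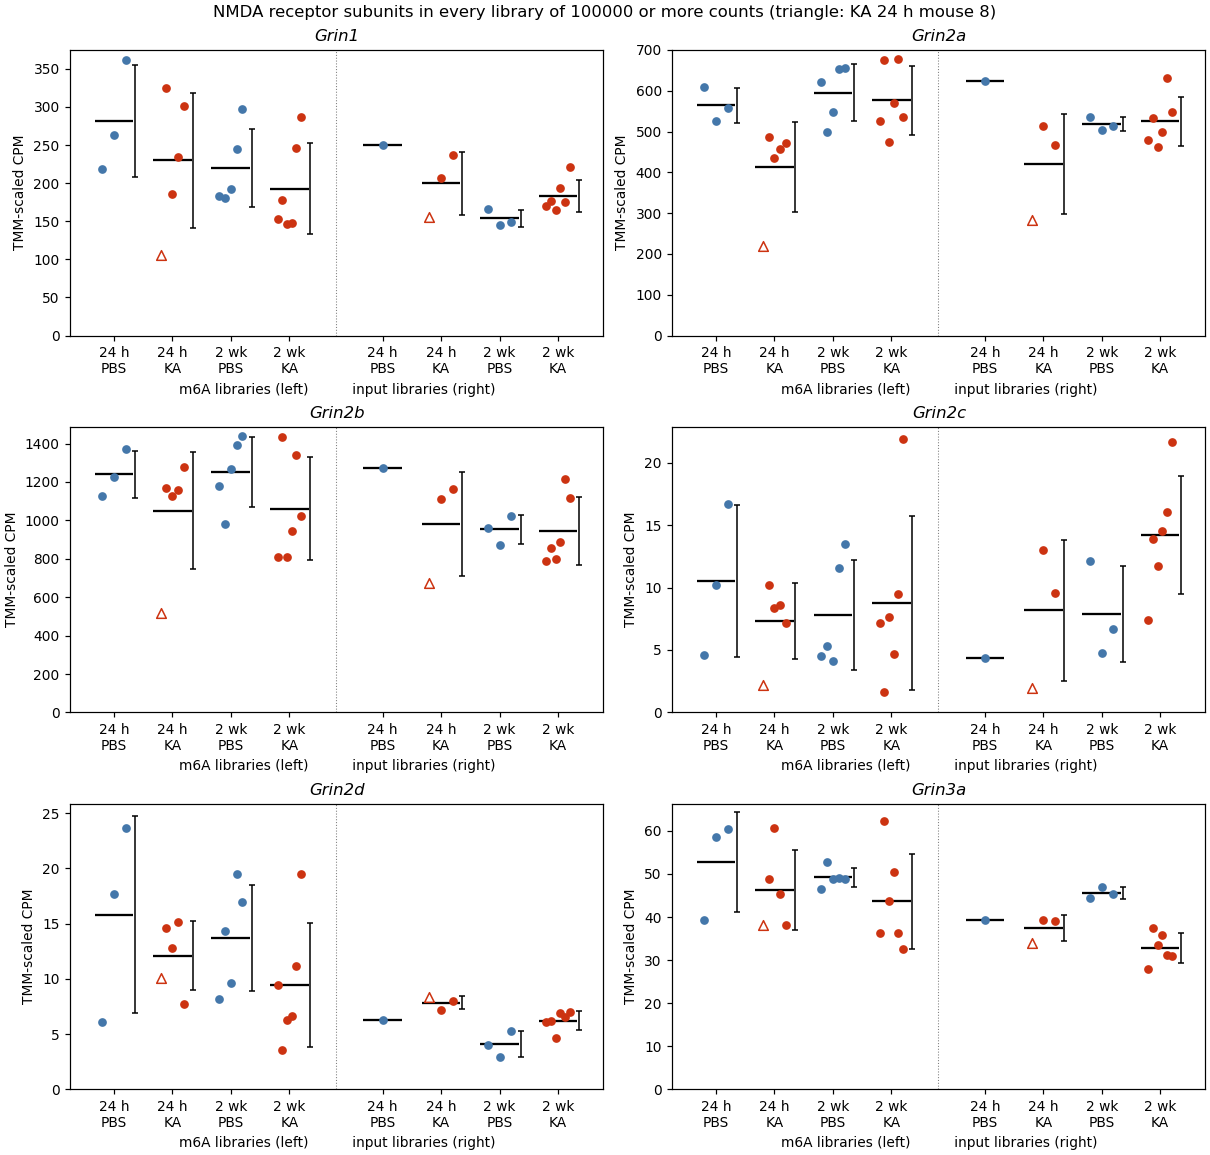
TMM-scaled CPM of each subunit in every library of at least 100000 counts, by time and treatment, with m6A libraries left and input libraries right of the dotted line; bars are group means and whiskers 1 SD. Grin2a in m6A libraries at 24 hours and Grin3a in input libraries at 2 weeks are the cases where all KA points lie below all PBS points of a group with more than 1 PBS mouse.

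Grin1 encodes GluN1, without which no NMDA receptor assembles. In m6A libraries at 24 hours it measured 219, 264 and 362 CPM in PBS mice and 105, 186, 234, 301 and 324 CPM in KA mice, so the groups overlapped, and the lowest value was that of mouse 8. The log2 fold change was -0.27 ± 0.35 (SE, adjusted p = 0.983 by edgeR) and -0.10 without mouse 8. In input libraries at 24 hours the KA mice had 156, 207 and 237 CPM and the 1 PBS mouse 249 CPM (log2 fold change -0.28, and -0.15 without mouse 8). With a single PBS library, 20.6% of all genes tested had every KA value below it, as Grin1, Grin2a and Grin2b did. At 2 weeks the m6A libraries of KA mice ran from 147 to 287 CPM (median 165) and those of PBS mice measured 181, 183, 193, 245 and 298 CPM. Input libraries at 2 weeks had 145, 149 and 167 CPM in PBS mice and 164 to 221 CPM (median 176) in KA mice. Only the lowest KA value fell below the highest PBS value there, and the fold change was 0.25 ± 0.13 (SE, adjusted p = 0.402 by edgeR).

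Grin2a encodes GluN2A, the subunit of fast-closing receptors at mature synapses. Among m6A libraries at 24 hours the PBS mice had 525, 559 and 610 CPM and the KA mice 220, 435, 458, 472 and 486 CPM. Every KA value was below every PBS value, a pattern also seen in the lower direction for 2.13% of all genes tested and in the higher direction for 2.54%. The log2 fold change was -0.42 ± 0.29 (SE, adjusted p = 0.983 by edgeR). Without mouse 8 it was -0.27, and within library set 4, which holds 2 KA and 2 PBS mice, it was also -0.27. The 8 genes of the excitatory neuron list, some of them general neuronal genes, summed to 1858 to 4542 CPM in these KA libraries. Mouse 8 was lowest, and the PBS libraries had 4038.5 to 4386 CPM. The part of this list in the Grin2a values was not tested. In the input libraries at 24 hours Grin2a measured 282, 466.4 and 512 CPM in KA mice and 624 CPM in the 1 PBS mouse (log2 fold change -0.53, and -0.34 without mouse 8). At 2 weeks the groups overlapped. The m6A libraries had 474 to 677 CPM (median 553) in KA mice and 499 to 655 CPM in PBS mice, with a log2 fold change of -0.04 ± 0.17. Input libraries at 2 weeks had 461 to 630 CPM (median 516) in KA mice and 503, 514 and 537 CPM in PBS mice (log2 fold change 0.01 ± 0.13). A difference between the fold changes in m6A libraries at 24 hours and at 2 weeks was not detected ( -0.39 ± 0.29 on the log2 scale, SE, adjusted p = 1.00 by edgeR).

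Grin2b encodes GluN2B, the subunit of slower receptors and a partner of the kinase CaMKII. Its m6A libraries at 24 hours had 1124, 1228 and 1369 CPM in PBS mice and 519, 1127, 1159, 1171 and 1280 CPM in KA mice. Apart from mouse 8 the groups overlapped, and the log2 fold change moved from -0.22 ± 0.32 (SE) to -0.05 when mouse 8 was left out. Input libraries at 24 hours had 673, 1109 and 1165 CPM in KA mice and 1270.2 CPM in the PBS mouse (log2 fold change -0.33, and -0.14 without mouse 8). At 2 weeks the m6A libraries had 808 to 1435 CPM (median 984) in KA mice and 982, 1178, 1266, 1393 and 1441 CPM in PBS mice (log2 fold change -0.23 ± 0.21, adjusted p = 0.880 by edgeR). Input libraries at 2 weeks had 789 to 1214 CPM (median 872) in KA mice and 874, 961 and 1025 CPM in PBS mice, and the fold change was -0.02 ± 0.17. The KA values of Grin2b spread more widely than the PBS values in both kinds of library at that time.

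The ratio of Grin2a to Grin2b was taken from counts within each library, so that it does not depend on scaling between libraries, and it is given as a description. At 24 hours it lay, in m6A libraries, between 0.369 and 0.423 in KA mice and between 0.408 and 0.543 in PBS mice. At 2 weeks it lay between 0.471 and 0.647 in KA mice and between 0.433 and 0.528 in PBS mice. On the log2 scale the means were -1.33 ± 0.08 (SD, n = 5) and -1.13 ± 0.22 (SD, n = 3) at 24 hours, and -0.86 ± 0.17 (SD, n = 6) and -1.07 ± 0.12 (SD, n = 5) at 2 weeks. Of the PBS mice at 24 hours, mouse 1, in library set 5, was at -0.88, and mice 71 and 73, in set 4, were at -1.23 and -1.29. Without mouse 1, a comparison chosen after seeing the data, their mean was -1.26 and lay close to that of the KA mice, which were in sets 3 and 4. At 2 weeks the KA mice were in sets 3 and 5 and the PBS mice in sets 4 and 5, so the ratios of the 2 times also differ in library set. Input libraries at 24 hours gave 0.400 to 0.462 in KA mice and 0.491 in the PBS mouse, which was again mouse 1. Its input library and those of KA mice 67 and 98, at 0.462 and 0.400, had no name prefix. At 2 weeks input libraries gave 0.491 to 0.622 in KA mice and 0.502 to 0.576 in PBS mice. Mouse 8, at 0.423 and 0.420, lay near the other KA mice in this ratio.

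**Figure D3:**
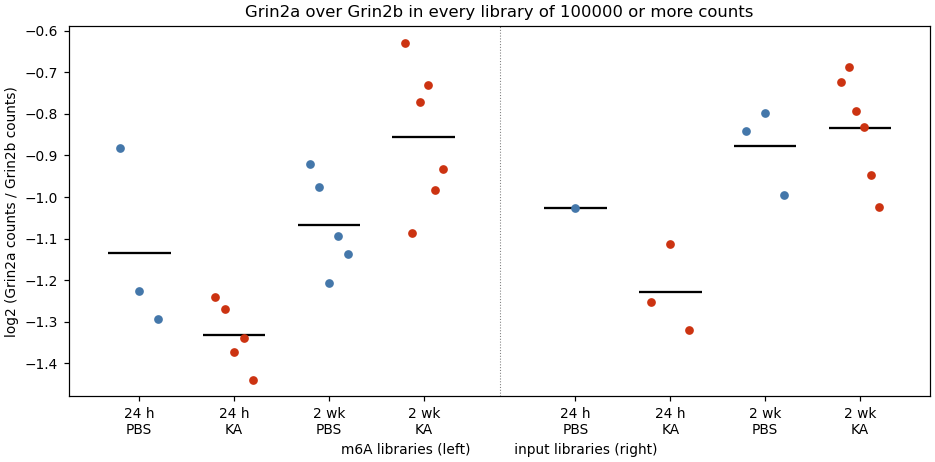
Log2 ratio of Grin2a to Grin2b counts in every library of at least 100000 counts, by time and treatment, with group means as bars. In m6A libraries the KA points run from -1.44 to -1.24 at 24 hours and from -1.09 to -0.63 at 2 weeks, and 1 PBS mouse at 24 hours lies apart from the other 2 at -0.88.

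Grin2c encodes GluN2C, which is best known from cerebellar granule cells and is also made by astrocytes and some interneurons of the forebrain. At 2 weeks the input libraries of PBS mice held 4.76, 6.69 and 12.1 CPM and those of KA mice 7.41 to 21.7 CPM (median 14.2). The groups overlapped through the lowest KA mice, and the log2 fold change was 0.81 ± 0.32 (SE, adjusted p = 0.308 by edgeR). The summed level of 8 astrocyte markers, led by Slc1a2 and Gfap, was 3142 to 7472 CPM in those KA libraries and 2182 to 3912 CPM in the PBS libraries. Whether it had a part in the Grin2c values was not tested. In bulk tissue, fewer or more cells of a type and a change of RNA per cell cannot be told apart. Grin2c in m6A libraries at 2 weeks measured 1.68 to 21.8 CPM (median 7.39) in KA mice and 4.14, 4.54, 5.32, 11.6 and 13.5 CPM in PBS mice, and the coefficient of variation of the KA mice, 79.6%, was the largest of any subunit in any group (log2 fold change 0.16 ± 0.52). At 24 hours the input libraries of KA mice had 1.95, 9.54 and 13.04 CPM against 4.40 CPM in the PBS mouse, and the lowest value was that of mouse 8. The log2 fold change of 0.91 ± 1.06 (SE, adjusted p = 0.991 by edgeR) became 1.38 (adjusted p = 0.0316) without mouse 8, when 13% of all genes were called. That fit has 2 KA libraries and 1 PBS library, so it holds no measure of the spread among PBS mice. The fold change in m6A libraries at 24 hours had the other sign, -0.52 ± 0.50 and -0.28 without mouse 8, with 4.63, 10.2 and 16.7 CPM in PBS mice and 2.21 to 10.2 CPM in KA mice. There PBS mouse 1, at 4.63 CPM, was in library set 5, and PBS mice 71 and 73 were in set 4.

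Grin2d encodes GluN2D, the subunit with the slowest closing, and had the lowest level per kb in input libraries. At 2 weeks it had 2.98, 4.05 and 5.32 CPM in PBS input libraries and 4.61 to 7.01 CPM (median 6.35) in KA input libraries. Only the lowest KA mouse, mouse 7, lay within the PBS range, and the log2 fold change was 0.54 ± 0.25 (SE, adjusted p = 0.350 by edgeR). The fold change in m6A libraries of the same time was -0.54 ± 0.37 (SE, adjusted p = 0.875 by edgeR), with 3.56 to 19.5 CPM (median 8.04) in KA mice and 8.16, 9.65, 14.3, 16.9 and 19.5 CPM in PBS mice. The PBS mice at 16.9 and 19.5 CPM were in library set 4, which held no KA mouse at 2 weeks, and the others were in set 5. Over 19 settings, library set as a block among them, the fold change lay between -0.89 and -0.39. At 24 hours the input libraries gave 7.18, 7.99 and 8.38 CPM in KA mice and 6.31 CPM in the PBS mouse. The log2 fold change was 0.36, near the median of 0.30 over all genes, and 0.27 without mouse 8, where that median was 0.01. With a single PBS library, 17.3% of all genes had every KA value above it. The m6A libraries at 24 hours had 6.10, 17.7 and 23.7 CPM in PBS mice and 7.77 to 15.1 CPM in KA mice (log2 fold change -0.34 ± 0.41, and -0.29 without mouse 8). There the PBS mouse at 6.10 CPM was in set 5, and those at 17.7 and 23.7 CPM were in set 4.

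Grin3a encodes GluN3A, a subunit that lowers calcium permeability and magnesium block. In input libraries at 2 weeks PBS mice measured 44.3, 45.5 and 47.0 CPM, and KA mice measured 28.0 to 37.6 CPM with a median of 32.4. All 6 KA values were below all 3 PBS values, a pattern also found in the lower direction for 3.64% of all genes tested and in the higher direction for 3.72%. The log2 fold change of -0.47 ± 0.13 (SE) did not pass after adjustment (adjusted p = 0.242 by edgeR, and 0.0881 by DESeq2), but it did with voom and sample quality weights (-0.43, adjusted p = 0.0474), where 2.49% of all genes were called. Leaving out any 1 mouse gave -0.51 to -0.44, and the 3 KA and 3 PBS libraries without a name prefix gave -0.59. The summed level of 8 inhibitory neuron markers, led by Gad1 and Gad2, was 347 to 517 CPM in these KA libraries. It was 437 to 476 CPM in the PBS libraries. The excitatory neuron list, not specific to those neurons, summed to 2335 to 3310 CPM in the KA and 2516 to 2910 CPM in the PBS libraries. Of the other lists, microglia markers summed to 160.5 to 429 CPM in the KA and 119.7 to 165 CPM in the PBS libraries. Dentate granule cell markers summed to 163 to 333 and 133 to 182 CPM. In these 2 lists 8 of 8 and 5 of 5 genes were above 0, against 52.4% of all genes tested. Their medians were 0.89 and 0.81 on the log2 scale, and astrocyte markers had a median of 0.50. The ranges of these lists overlapped between the groups, none of their genes was called by edgeR, and their part in the Grin3a values was not tested. In the m6A libraries of 2 weeks the KA mice ran from 32.7 to 62.2 CPM (median 40.1) across PBS values of 46.6, 48.7, 48.8, 49.1 and 52.8 CPM (log2 fold change -0.16 ± 0.20). At 24 hours input libraries had 34.0, 39.2 and 39.3 CPM in KA mice and 39.2 CPM in the PBS mouse (log2 fold change -0.02, and 0.02 without mouse 8), and m6A libraries gave -0.15 ± 0.26, and -0.11 without mouse 8.

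**Figure D4:**
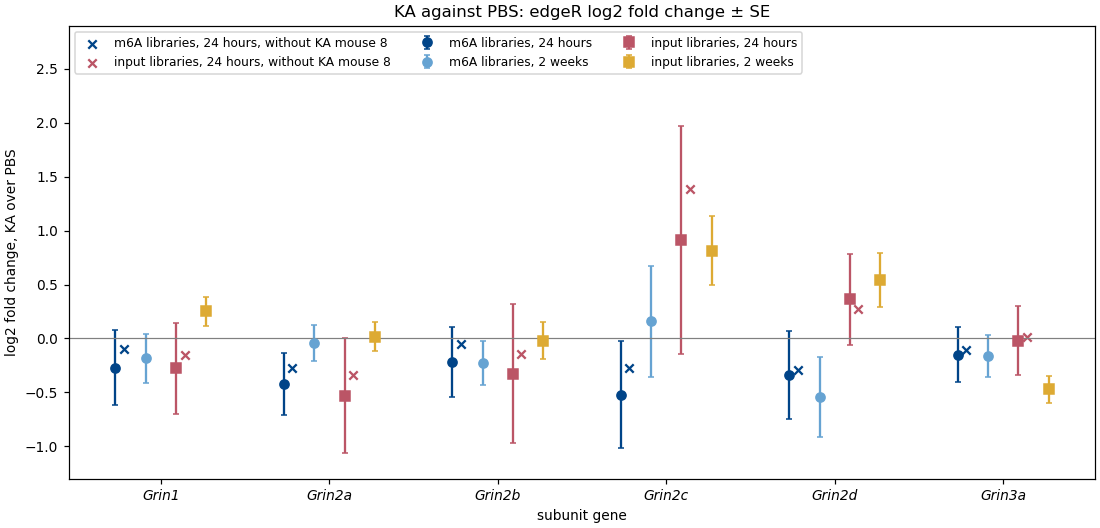
Log2 fold change of KA over PBS for each subunit with its SE in m6A libraries (circles) and input libraries (squares) at 24 hours and 2 weeks; crosses give the 24-hour values without KA mouse 8. The interval of 1 SE is narrowest for the 2-week input libraries, where Grin3a is at -0.47 and Grin2c at 0.81.

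No difference between the KA effects in m6A libraries at 24 hours and at 2 weeks was called for any subunit (adjusted p = 1.00 for each of the 6, edgeR interaction over 19 libraries, where 0.00573% of genes were called). The differences, 24 hours minus 2 weeks on the log2 scale, ran from -0.67 ± 0.79 (SE) for Grin2c to 0.21 ± 0.59 for Grin2d. The SE of these differences was 0.29 to 0.40 for Grin1, Grin2a, Grin2b and Grin3a, so only changes of a larger size could have been seen.

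The m6A and input libraries of the same mouse were then compared, with the mouse as a block. An m6A library was made from polyA RNA by the labels and an input library from total RNA, so pull-down by the antibody and selection of polyA RNA cannot be told apart here. The PBS fit pooled both times, with 1 mouse at 24 hours and 3 at 2 weeks. KA mice were fitted by time, 3 at 24 hours and 6 at 2 weeks. No subunit passed an adjusted p of 0.05 by edgeR in PBS mice (1.1% of genes called), in KA mice at 24 hours (0.143%) or in KA mice at 2 weeks (8.69%). Scaling by library size in place of TMM moved the median of all genes from about 0 to between 0.16 and 0.24 on the log2 scale in these 3 comparisons, and it lay between -0.25 and 0.09 in the DESeq2 fits, which also tested other sets of genes, so values near 0 carry no direction.

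Grin2c was the subunit with the lowest m6A over input ratio. Its log2 ratio was below 0 in 12 of 13 mice, with a median of -0.69. In the 6 KA mice at 2 weeks it was -3.18, -1.84, -0.94, -0.79, -0.23 and -0.07, and the fitted value was -1.24 ± 0.35 (SE, adjusted p = 0.0530 by edgeR). The value fell on the other side of the threshold with DESeq2 (adjusted p = 0.00552, 13.8% of genes called) and with voom and sample quality weights (adjusted p = 0.00961, 31% of genes called), and in edgeR without KA mouse 42 (8.09% of genes called) or without KA mouse 6 (13.9%). Mouse 6 had the lowest ratio, with 49 m6A and 106 input counts. Over 9390 genes the deviations of its m6A library correlated at 0.237 with those of its own input library and at up to 0.483 with those of another mouse. In PBS mice the fitted value was -0.76 ± 0.32 (SE, adjusted p = 0.267 by edgeR), and it was called with voom (-0.96, adjusted p = 0.0453), where 13.4% of genes were. It ran from -0.96 to -0.41 when 1 PBS mouse was left out, and was -0.41 without PBS mouse 2. At 24 hours KA mice had -0.69, -0.60 and 0.06, the last in mouse 8, and the fitted value was -0.39, or -0.58 without that mouse.

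Grin2d leaned the other way, and Grin1, Grin2a, Grin2b and Grin3a had fitted values between -0.33 and 0.14 in the 3 comparisons. The log2 m6A over input ratio of Grin2d was above 0 in 9 of 13 mice and ranged from -0.92 to 2.09. The highest value, in a PBS mouse, rested on 10 input counts. Fitted values were 0.65 ± 0.35 (SE) in PBS mice, 0.25 ± 0.29 in KA mice at 24 hours and 0.14 ± 0.26 in KA mice at 2 weeks. The value in PBS mice was 0.30 without PBS mouse 3, which gave the highest ratio, and 1.06 without PBS mouse 1. Mouse 1, the only PBS mouse at 24 hours, had a log2 ratio of -0.24, and the 3 at 2 weeks had 0.57 to 2.09. Grin2a was below 0 in 12 of 13 mice but only slightly, with a median of -0.14, and Grin2b in 10 of 13 with the same median. Grin1 was below 0 in 7 mice and Grin3a in 6. Without mouse 8 the fitted values in KA mice at 24 hours were -0.24 for Grin2a, -0.11 for Grin2b, 0.39 for Grin2d and -0.05 for Grin3a, and that of Grin1 turned from -0.05 to 0.29 (adjusted p = 0.0547 by edgeR). In that fit of 2 mice 19.7% of all genes were called (2513 of 12734, in place of 20). In KA mice at 2 weeks Grin1 was at -0.22 ± 0.14 (SE, adjusted p = 0.300 by edgeR) and was called with voom alone (-0.32, adjusted p = 0.0368), where 31% of all genes were called.

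**Figure D5:**
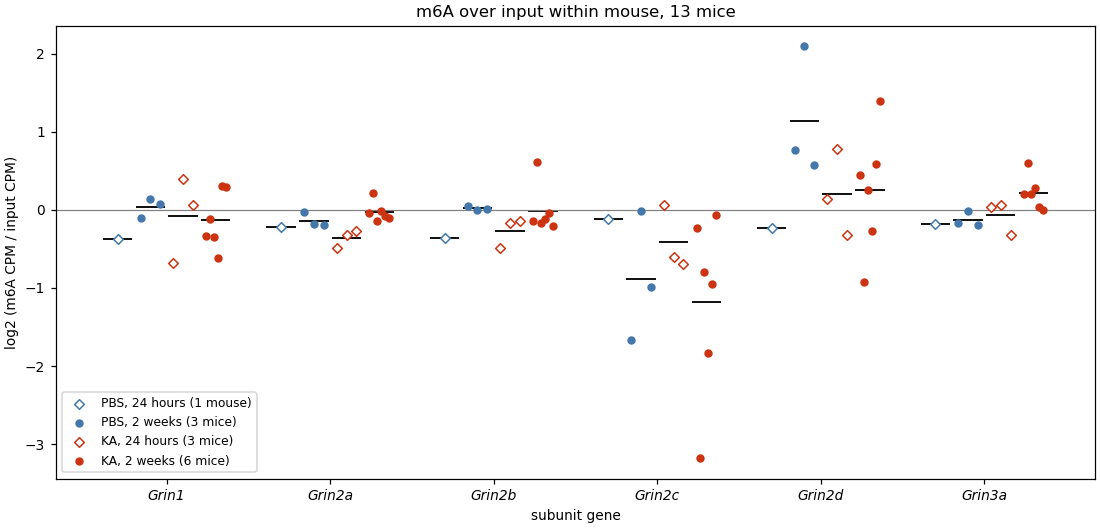
Log2 ratio of m6A to input CPM within each of 13 mice for the 6 subunits, by treatment and time, with group means as bars; both libraries were scaled together by TMM. Grin2c reaches -3.18 in 1 KA mouse, and the 6 KA mice at 2 weeks are all below 0.

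Whether m6A over input differed between KA and PBS mice was tested at 2 weeks, in 6 KA and 3 PBS mice. No subunit passed (0.00636% of genes called). The difference on the log2 scale was -0.92 ± 0.47 (SE, adjusted p = 0.875 by edgeR) for Grin2d, which was -0.52 without PBS mouse 3 and -1.17 without PBS mouse 4, -0.23 ± 0.21 for Grin1 and 0.29 ± 0.20 for Grin3a. The m6A over input ratios of Grin3a were -0.19, -0.17 and -0.01 in PBS mice and -0.0012 to 0.60 in KA mice, and the lowest KA mouse and the highest PBS mouse were nearly level. Grin2a (0.04 ± 0.18) and Grin2b (-0.09 ± 0.22) were near 0.

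Genes that act with the receptor were counted in 4 lists. None of their members passed an adjusted p of 0.05 by edgeR in any comparison of KA with PBS mice. Of all genes tested, 0.00607% were called in m6A libraries at 24 hours. The share was 0% in m6A libraries at 2 weeks and in input libraries at both times. The lack of calls therefore does not set these lists apart from other genes. The first held 26 genes of the postsynaptic scaffold and of kinases and phosphatases that act on the receptor. In m6A libraries 5 had a fold change above 0 at 24 hours and 5 at 2 weeks. Their medians were -0.39 and -0.26 on the log2 scale, against 0.08 and -0.0013 over all genes tested. In input libraries 16 and 22 were above 0, with medians of 0.08 and 0.42 against 0.30 and 0.02 over all genes tested. The second held 19 genes of receptor trafficking and auxiliary proteins. Of these, 6 and 11 were above 0 in m6A libraries and 9 and 15 in input libraries at the 2 times. Over all genes tested, 58.0% and 49.8% were above 0 in m6A libraries and 66.7% and 52.4% in input libraries. List values at 24 hours include mouse 8. The 13 or 14 tested genes that supply and clear glycine and D-serine had medians between -0.10 and 0.24, and the 14 regulators of transcription and RNA had medians between -0.18 and 0.04. Within mouse, 2 of 73 list genes were called in PBS mice (2.74%, against 1.1% of all genes tested) and 3 of 72 in KA mice at 2 weeks (4.17%, against 8.69%), and they are named here after their values were seen. Nrf1, a transcription factor of nuclear genes for respiration, was lower in m6A than in input libraries in PBS mice (-2.09 ± 0.21, SE, adjusted p = 0.00566 by edgeR) and in KA mice at 2 weeks (-0.93 ± 0.22, adjusted p = 0.0335). Grina was lower in PBS mice (-0.89 ± 0.14, adjusted p = 0.0331 by edgeR). The tyrosine kinase Src was lower (-0.76 ± 0.15, adjusted p = 0.0213 by edgeR) and Fmr1, which encodes an RNA-binding protein of synapses, was higher (0.67 ± 0.13, adjusted p = 0.0190) in KA mice at 2 weeks. The calls in PBS mice depend on 1 mouse, since without PBS mouse 3 edgeR called 0 of 16796 genes. In KA mice at 2 weeks it called 117 to 151 genes without mouse 5, 7 or 9, in place of 1339. Without mouse 42, 21 or 6 it called 1245 to 2145.

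The subunits did not vary as 1 group from library to library. Over the 19 m6A libraries, and given only as a description, Pearson's r of log2 CPM was 0.80 between Grin2a and Grin2b and 0.75 between Grin1 and Grin2b. Without KA mouse 8 these were 0.50 and 0.63. Grin2c and Grin2d, both of low level, had 0.79 with mouse 8 and 0.85 without it, whereas Grin2a had -0.20 with Grin2c and -0.17 with Grin2d without it. Grin3a had an r of at most 0.41 with any other subunit. Among 9788 genes of at least 10 CPM, the ones most like each subunit were Gm15800, Sez6l2 and Klc2 for Grin1 (r of 0.96 each), Prkca, Ppp3ca and Slain1 for Grin2a (0.91 to 0.93), and Fam160a2, Rapgef2 and Eif2ak1 for Grin2b (0.91 to 0.92). For Grin2d they were St5, Cep164 and Zfp319 (0.89 to 0.90), for Grin3a Nwd2, Adgra1 and Runx1t1 (0.75 to 0.79), and for Grin2c, out of 9789 genes, Plekhg5, Epas1 and Sgsm2 (0.96 each). The libraries share depth, library set and mouse 8 as sources of likeness.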

How the data were processed

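Hippocampal total RNA (input) and m6A-immunoprecipitated polyA RNA were made into libraries with a stranded total RNA kit (SMARTer Stranded Total RNA-Seq Kit v2). The authors deposited raw counts of reads per gene symbol, 1 column per library and sequencing lane, made on mm10 per the labels. No source used here names the aligner, the counting program, the annotation or whether strand was used. Lanes were summed, 140 columns to 35 libraries (19 m6A, 16 input), and another 8 columns, which match no sample label, were left out. Only 8 libraries have the assay in their column names. For the rest a numeric prefix was read as m6A, which is an inference, and condition and mouse came from the labels. Input libraries under 100000 counts (3) were left out of the tests.

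Comparisons used edgeR 4.0.16 in R 4.3.3, with TMM scaling, filterByExpr, the robust quasi-likelihood test and Benjamini-Hochberg adjustment over all genes tested (threshold 0.05). Only the groups compared entered a fit, except that the comparison of times used all 19 m6A libraries. The SE is the absolute log2 fold change over the square root of F. Scripts were tested on simulated data. P-values measure the spread between mice, which in m6A libraries includes differences between library sets. Where the mouse was a block, they measure the spread between mice of the difference between m6A and input libraries. In 24-hour input tests the 1 PBS library was assumed to vary like the KA libraries. Alternatives tried were voom with quality weights per sample (limma 3.58.1), DESeq2 1.42.0, library size scaling, no filter, library set as a block, other sets of samples, no mouse block, and each mouse left out. Restriction to 1 library set was chosen after seeing the data. The members, lists and the rule for named genes (the subunits, up to 3 list genes past the threshold per comparison, 2 markers per list, the 3 most alike genes) were chosen with earlier results of these data known.

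The m6A and input libraries of a mouse are paired because the labels give the same animal. In 12 mice the deviations of the paired libraries from their group means correlated at 0.0557 to 0.843 (median 0.489), above 0.1 in 11, and 9 mice correlated best with their own input library. No pair of libraries in a group matched within sampling noise. Counting error is the only error that depth covers, and a count of 0 allows up to 3 counts.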

Additional observations from a re-analysis of the deposited data

Results flagged for a closer look

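Among 34 groups of 4 to 10 values of the subunits, 5 held a value that lay far from the rest by Dixon's criterion. Chance gives about 1 in 20 independent groups, but these groups share mice. All 5 values came from mice 6, 7 and 8, so they cannot be set against that rate. In m6A libraries of KA mice at 24 hours, mouse 8 was low in Grin2a, at 220 CPM against 435 CPM in the next mouse (gap over range 0.810), and in Grin2b, at 519 against 1127 CPM (0.800). In input libraries of KA mice at 2 weeks, mouse 7 was low in Grin2d, at 4.61 against 6.12 CPM (0.627). For the log2 ratio of m6A to input in KA mice at 2 weeks, mouse 6 was high in Grin2a, at 0.21 against -0.0199 (0.653), and in Grin2b, at 0.61 against -0.0421 (0.805). The m6A library of mouse 6 also gave the lowest Grin2c and Grin2d levels of its group, 1.68 and 3.56 CPM.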

How the results depend on the processing

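Of 750 values of the subunits under other settings, 655 kept their sign and their side of the threshold, 86 changed sign and 9 came to pass the threshold. No value with a main size over 0.53 on the log2 scale changed sign. The cause was not tested. Among the 24-hour input libraries used, only that of KA mouse 8 had a name prefix. There the library set block and leaving out mouse 8 set aside the same library and are not separate checks. One subunit was called (1 in place of 0) with library set as a block in input libraries at 24 hours (Grin2c, 1.40, where 14.7% of all genes were called), with voom in input libraries at 2 weeks (Grin3a) and within PBS mice (Grin2c), and with DESeq2 within KA mice at 2 weeks (Grin2c), where voom called 2. When single mice were left out the number called ranged from 0 to 1 in input libraries at 24 hours (1 without KA mouse 8) and within KA mice at 2 weeks (1 without KA mouse 42 or 6), where Grin2c ran from -1.47 to -0.88.

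Signs changed as follows, in log2 units. In m6A libraries at 2 weeks Grin2a was 0.0317 with library set as a block and 0.0506 within set 5, a restriction chosen after seeing the data. In input libraries at 24 hours Grin3a was 0.0293 with voom, 0.0308 with the set block, 0.245 with all 7 labelled libraries and 0.0012 in the fit of 13 libraries, and with all 7 libraries Grin1 was 0.0907 and Grin2a 0.0067. In input libraries at 2 weeks Grin2a was -0.0098 with voom and -0.0188 by library size, and Grin2b was 0.131 with the set block and 0.134 in libraries without a prefix, also chosen after seeing the data. For 24 hours against 2 weeks Grin1 was 0.0982 with voom and 0.0538 by library size, Grin3a -0.0479 with voom, -0.0137 with no filter and -0.0167 with the set block, and Grin2b -0.0464 with that block. Scaling by library size gave, within PBS mice, 0.105 for Grin1, 0.0151 for Grin2a, 0.0972 for Grin2b and 0.0316 for Grin3a, within KA mice at 24 hours 0.225 for Grin1, 0.0293 for Grin2b and 0.232 for Grin3a, within KA mice at 2 weeks 0.0761 for Grin2a and 0.0974 for Grin2b, and for KA against PBS in m6A over input -0.0039 for Grin2a. Voom gave 0.159 for Grin1 within KA mice at 24 hours and 0.105 for Grin2c in m6A over input.

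Without the mouse as a replicate block, Grin1 within KA mice at 24 hours was 0.0581 and Grin2c in m6A over input 0.0728. Genes called without the pairing numbered 304 in place of 187 in PBS mice, 0 in place of 20 and 407 in place of 1339 in KA mice at 24 hours and 2 weeks, and 0 in place of 1 for KA against PBS, with 0 subunits called in each.

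Leaving out single mice moved these values across 0. In m6A libraries Grin2d at 24 hours ran from -0.72 to 0.0578, and at 2 weeks Grin2a from -0.11 to 0.0111 and Grin2c from -0.36 to 0.45. In input libraries Grin3a at 24 hours ran from -0.0506 to 0.0161, and at 2 weeks Grin2a from -0.0466 to 0.0460 and Grin2b from -0.11 to 0.0227. Between the times Grin1 ran from -0.26 to 0.13, Grin2b from -0.0945 to 0.15, Grin2d from -0.18 to 0.60 and Grin3a from -0.16 to 0.11. Within mouse, Grin1 ran from -0.18 to 0.0081 in PBS mice and from -0.31 to 0.29 in KA mice at 24 hours, where Grin2d ran from -0.0395 to 0.41 and Grin3a from -0.12 to 0.0448. Grin2d ran from -0.0674 to 0.37 in KA mice at 2 weeks. For KA against PBS in m6A over input, Grin2a ran from -0.0094 to 0.11 and Grin2c from -0.70 to 0.11. Leaving out PBS mouse 1 from the 24-hour input libraries was not run, since no PBS library would remain.

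The number of all genes called varied far more, from 0 to 1120 in m6A libraries at 24 hours (edgeR 1), 0 to 18 at 2 weeks (edgeR 0), 0 to 2783 in input libraries at 24 hours (edgeR 0), 0 to 342 at 2 weeks (edgeR 0), 1 to 62 between the times (edgeR 1), 0 to 2277 within PBS mice, 0 to 2513 and 117 to 4773 within KA mice at 24 hours and 2 weeks, and 0 to 2 for KA against PBS in m6A over input. Depth limits Grin2c and Grin2d most, with as few as 12 and 13 counts in m6A and 16 and 10 in input libraries.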
